A study of Homo sapiens with 20 samples.

Results

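RNA-seq of *ALKBH5* knockout (A5-KO) and wild-type (WT) pancreatic progenitors (PPs) was compared after 1 h of actinomycin D (Act D). The comparison takes 4 of the 20 libraries of the series, 2 A5-KO and 2 WT, and the 13549 genes of 60623 listed that averaged at least 1 CPM in these 4 libraries (CPM, a gene's reads after every library is scaled to one total). The other libraries are PPs of both genotypes at 0, 2 and 3 h of Act D, used here for reference, and human islet-like organoids. The organoid libraries were not used. The question that the design puts is whether transcripts persist differently without ALKBH5 once new synthesis is blocked.

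ALKBH5 is a demethylase that removes N6-methyladenosine (m6A), an internal mark of messenger RNA that reader proteins recognise and that can shorten the life of a transcript. Act D binds DNA and stops transcription, so RNAs with a fast turnover are lost first and stable ones make up a growing share of what remains. PPs are endodermal epithelial cells that carry PDX1 and NKX6.1 and can form duct, acinar and endocrine cells, and the foregut endoderm they come from can also form liver and intestine.

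All 4 cultures were derived from human pluripotent stem cells (hPSCs) of the MEL1 INS GFP/W line, which carries GFP in the insulin gene, and were taken through the same media to day 14 and treated with Act D at 1 µg/ml for 1 h. The knockout hPSCs carry CRISPR-Cpf1 indels in the first exon of *ALKBH5* and were expanded from picked colonies, so a difference between genotypes cannot be told apart from a difference between the lines. The labels name 2 replicates of each group, which the study calls biological. An exact permutation test of 2 against 2 libraries cannot give a two-sided *p* below 0.33, so all tests come from models fitted across all genes. Values are CPM, each gene's share of its library, with no conversion to molecules per cell. A gene that rises in CPM after Act D has therefore gained share, not necessarily molecules, and fewer cells of a type cannot be told apart from less RNA per cell.

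The 4 libraries held between 30740452 and 34972686 reads. In genes averaging at least 10 CPM, the median distance between replicates was 0.08 (log2) for WT and 0.15 for A5-KO. Of 8801 such genes, 113 lay more than 1.5-fold apart between the A5-KO libraries, 98 of them higher in replicate 1, against 17 of 8678 genes between the WT libraries. The 98 genes had a median of 9651 exonic bases, against 5704.5 for all 8801 genes. No pair of replicates agreed within sampling noise. The A5-KO libraries thus stand further apart than the WT libraries, and the counts over all genes are given with and without replicate 1. The WT libraries at 3 h also stand apart in genes that set the genotypes apart at 1 h, with values given with the 3 h comparison.

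*ALKBH5* itself (GRCh38 chromosome 17, 18183078 to 18209954, + strand) was first checked in every library. It was at 133 and 125 CPM in WT PPs and at 11.1 and 10.1 CPM in A5-KO PPs. Both knockout libraries were far below both WT libraries, with a log2 difference of -3.49 (SE 0.11, adjusted *p* = 3.01e-08, limma). Before Act D it was at 149 and 172 CPM in WT and at 19.1 and 18.8 CPM in A5-KO, so the libraries match their labels at both times. Some reads of the gene remained in A5-KO at both times.

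The marker genes of PPs were present in all 4 libraries. *PDX1*, the regulator that specifies pancreas, was at 43.7 and 50.5 CPM in WT and at 53.3 and 51.4 CPM in A5-KO. *NKX6-1*, which marks the progenitors that go on to β cells, was at 96.2 and 112 CPM in WT and at 97.6 and 97.2 CPM in A5-KO. Both A5-KO libraries were above both WT libraries for *PDX1*, while the levels of *NKX6-1*, *SOX9* (59.5 and 71.2 against 62.5 and 60.3 CPM) and *MNX1* (61.4 and 66.3 against 70.2 and 63.0 CPM) overlapped between the genotypes. None of these 4 passed the test, with log2 differences of 0.15 (SE 0.11) for *PDX1*, -0.09 (SE 0.10) for *NKX6-1*, -0.08 (SE 0.11) for *SOX9* and 0.06 (SE 0.10) for *MNX1*. The direction for *NKX6-1* and *SOX9* reversed without WT replicate 2 and that for *MNX1* without A5-KO replicate 1.

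Much of the transcript share of *PDX1*, *NKX6-1* and *SOX9* had been lost by 1 h in both genotypes. *PDX1* had been at 200 and 156 CPM in WT and at 168 and 153 CPM in A5-KO before Act D. *SOX9* had been at 322 and 237 CPM in WT and at 292 and 227 CPM in A5-KO. *NKX6-1* had been at 367 and 289 CPM in WT and at 253 and 241 CPM in A5-KO, so its genotypes did not overlap before Act D, unlike at 1 h. *SPRY1*, a feedback inhibitor of receptor tyrosine kinase signalling, went from 159 and 118 to 10.8 and 12.5 CPM in WT and from 150 and 110 to 8.05 and 5.49 CPM in A5-KO. Both A5-KO libraries lay below both WT libraries for the remaining *SPRY1* (log2 difference -0.72, SE 0.18, adjusted *p* = 0.0384).

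*ONECUT1*, which encodes HNF6, was the exception among the PP regulators that the study names. It was at 13.9 and 13.5 CPM in WT and at 5.41 and 5.05 CPM in A5-KO. The genotypes did not overlap, and the log2 difference of -1.24 (SE 0.15, adjusted *p* = 0.000592) was close in size to the -1.39 (SE 0.17) measured before Act D. Of the 15 tested PP transcription factors, *ONECUT1* was called lower and *FOXA1*, a pioneer factor of foregut endoderm, higher in A5-KO than in WT. Over all genes 1.19% were lower and 3.19% higher. *FOXA1* was at 5.06 and 6.08 CPM in WT and at 14.8 and 14.1 CPM in A5-KO, a log2 difference of 1.24 (SE 0.15, adjusted *p* = 0.000749). Before Act D it had been at 21.0 and 13.9 CPM in WT and at 49.4 and 40.1 CPM in A5-KO, so its level fell in both genotypes.

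Over all genes, 432 were higher and 161 lower in A5-KO, which is 3.19% and 1.19% of the genes tested, where a call required more than 1.5-fold and 0.05 as the bound on the adjusted *p*. The libraries of the genotypes did not overlap for any called gene, which holds for 56.0% of all tested genes. The median difference over all genes was 0.03 on the log2 scale. The calls are counts on one scaling, and the share of them that were higher was 72.8%, against 62.1% with quantile normalization and 65.3% with median-of-ratios scaling. Without A5-KO replicate 1 the counts were 637 higher and 554 lower, or 53.5% higher, so the number of lower genes depends on that library. The plot of level against difference shows where the called genes lie.

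**Figure D1:**
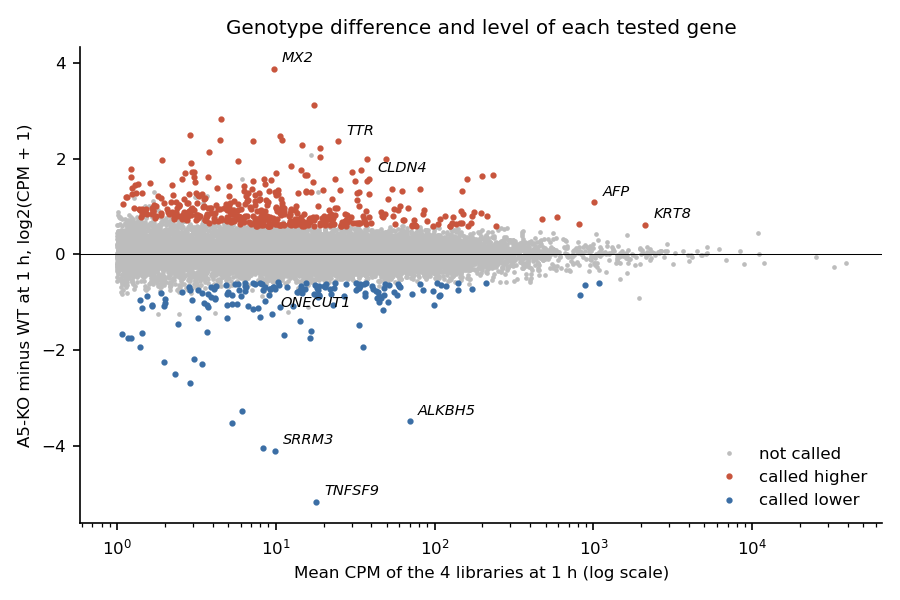
Each point is 1 of the 13549 tested genes, with the mean CPM of the 4 libraries on a log axis and the A5-KO minus WT difference at 1 h on the log2(CPM + 1) scale. The 432 genes called higher are orange-red and the 161 called lower are blue. *ALKBH5*, *TNFSF9* and *SRRM3* lie at the bottom and *MX2* at the top. Of the 593 called genes 553 lie below 100 CPM, where most of all tested genes lie too (median 19.3 CPM).

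Part of the difference was present before Act D. At 0 h, 218 genes (1.57% of 13911 tested) were higher and 157 (1.13%) lower in A5-KO, and those higher were 125 without WT replicate 2 and 131 without A5-KO replicate 1. Of the genes higher at 1 h, 135 were also higher at 0 h, which is 31.2% of the 1 h list and 61.9% of the 0 h list. Of the genes lower at 1 h, 63 were lower at 0 h, which is 39.1% and 40.1% of the lists. The median difference of the 432 genes was 0.85 at 1 h and 0.45 at 0 h, and that of the 161 genes was -0.82 at 1 h and -0.54 at 0 h. These genes were chosen on their 1 h values, which by itself favours smaller values at 0 h. The genes called at 0 h had medians of 0.895 at 0 h and 0.813 at 1 h where higher, and of -0.871 and -0.546 where lower.

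The genes with the greatest loss in A5-KO were nearly absent there. *TNFSF9*, which encodes the costimulatory ligand 4-1BBL, was at 41.9 and 29.3 CPM in WT and had no read in either A5-KO library. Taking 3 reads over the A5-KO group as the floor, it was at least 828-fold lower. *MYH14*, a non-muscle myosin heavy chain, was at 11.9 and 9.34 CPM in WT and also had no read in A5-KO, which makes it at least 246-fold lower. Both genes were also far apart before Act D, at 42.5 and 70.4 CPM for *TNFSF9* and 8.50 and 13.4 CPM for *MYH14* in WT, with at most 0.15 and 0.03 CPM in A5-KO.

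*PCDHGB5*, a member of the clustered γ-protocadherins that mediate homophilic adhesion, had 3 reads over both A5-KO libraries against 1106 in WT. The ratio was 387 with a 95% exact interval of 132 to 1880 that covers counting error only. *SRRM3*, a neuronal splicing regulator, was at 21.4 and 17.6 CPM in WT and at 0.14 and 0.23 CPM in A5-KO. *CD70*, another ligand of the TNF family whose gene lies close to *TNFSF9* on chromosome 19, was at 12.5 and 11.4 CPM in WT and at 0.32 and 0.35 CPM in A5-KO. In these genes both WT libraries were well above both A5-KO libraries, with adjusted *p* values of 2.35e-06 for *PCDHGB5* and *CD70* and 7.15e-07 for *SRRM3*. Reads of clustered protocadherins can be shared among near-identical exons, so the assignment to *PCDHGB5* is uncertain.

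The other genes of this group kept a clear signal in A5-KO. *GP2*, a zymogen granule glycoprotein that is also used as a surface marker of pancreatic progenitors, was at 56.8 and 56.3 CPM in WT and at 14.7 and 13.3 CPM in A5-KO (log2 difference -1.94, SE 0.11). *SLFN11*, an interferon-inducible factor that acts on stalled replication forks, was at 24.96 and 27.1 CPM in WT and at 7.13 and 6.89 CPM in A5-KO (-1.75, SE 0.13). *SLIT1*, an axon guidance ligand, was at 24.1 and 26.7 against 8.54 and 6.89 CPM (-1.60, SE 0.14). *TMC5* (-1.69, SE 0.14), the adhesion molecule gene *CLMP* (-1.48, SE 0.11) and the calpain family gene *CAPN6* (-1.40, SE 0.15) were lower as well, all without overlap of the genotypes. Their differences at 0 h were -1.84 for *GP2*, -1.71 for *SLFN11*, -1.57 for *SLIT1*, -1.61 for *TMC5*, -1.45 for *CLMP* and -0.98 for *CAPN6*, and none changed significantly in the first hour.

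**Figure D2:**
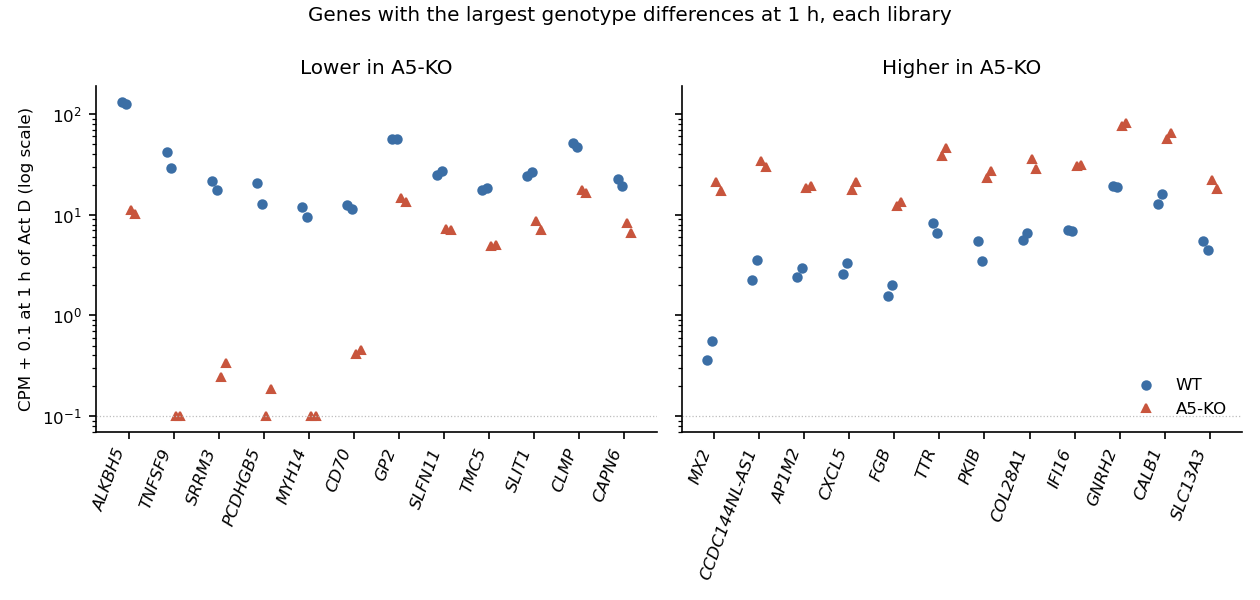
CPM + 0.1 on a log axis in each of the 4 libraries at 1 h for the 12 genes with the largest loss and the 12 with the largest gain in A5-KO, circles for WT and triangles for A5-KO. The dotted line marks a CPM of 0, where both A5-KO libraries of *TNFSF9* and *MYH14* lie, and no gene has overlapping genotypes.

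The largest gain was that of *MX2*, an interferon-induced GTPase with antiviral activity, at 0.26 and 0.46 CPM in WT and 20.9 and 17.2 CPM in A5-KO (log2 difference 3.88, SE 0.19, adjusted *p* = 1.04e-06). The long non-coding RNA *CCDC144NL-AS1* was at 2.17 and 3.45 CPM in WT and at 34.1 and 29.7 CPM in A5-KO. Whether the counting used strand is not stated in the sources used here, so its reads cannot be told apart from those of overlapping genes. *AP1M2*, the adaptor subunit that sorts cargo to the basolateral side of epithelial cells, was at 2.32 and 2.83 CPM in WT and at 18.4 and 19.0 CPM in A5-KO (2.47, SE 0.16).

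The chemokine gene *CXCL5* was at 2.49 and 3.19 CPM in WT and at 17.5 and 20.9 CPM in A5-KO (2.40, SE 0.17). *IFI16*, a nuclear DNA sensor, was at 6.98 and 6.73 against 30.5 and 31.5 CPM (2.03, SE 0.13). *GNRH2*, a neuropeptide gene, was at 19.4 and 18.7 against 76.9 and 81.5 CPM (2.00, SE 0.10). In each of these the lower A5-KO library was well above the higher WT library. The calcium-binding protein gene *CALB1* (1.99, SE 0.13), the dicarboxylate transporter gene *SLC13A3* (1.84, SE 0.16), the protein kinase A inhibitor gene *PKIB* (2.29, SE 0.19) and the collagen gene *COL28A1* (2.23, SE 0.15) completed the list with *FGB* and *TTR*. The differences of all 12 at 0 h lay between 1.52 for *GNRH2* and 3.61 for *MX2*, and no change in the first hour passed the test, with adjusted *p* from 0.31 for *AP1M2* upwards.

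Several genes of hepatocytes were higher in A5-KO. Of 22 tested hepatic genes, 9 were higher and 0 lower in A5-KO, with a median difference of 0.44 against 0.03 over all genes, which were called at 3.19% and 1.19%. *AFP*, α-fetoprotein of fetal liver and yolk sac, was at 639 and 644 CPM in WT and at 1311 and 1445 CPM in A5-KO (log2 difference 1.1, SE 0.08, adjusted *p* = 1.83e-05). *TTR*, the thyroxine carrier transthyretin, was at 8.26 and 6.54 CPM in WT and at 38.6 and 45.7 CPM in A5-KO (2.36, SE 0.15). The fibrinogen chain gene *FGB* was at 1.46 and 1.89 against 12.1 and 13.4 CPM (2.37, SE 0.18).

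*APOA1*, the main apolipoprotein of high-density lipoprotein, was at 135 and 139 CPM in WT and at 229 and 276 CPM in A5-KO (0.87, SE 0.10). *ALB*, serum albumin, was at 7.03 and 6.15 CPM in WT and at 12.3 and 15.2 CPM in A5-KO (0.95, SE 0.16, adjusted *p* = 0.00513). The genotypes did not overlap for these genes, and the A5-KO levels were the higher ones in each. The difference for *ALB* was 1.58 and that for *AFP* 1.24 at 0 h, when 7 of 21 tested hepatic genes were higher and 0 lower, beside 1.57% and 1.13% of all genes. The number higher was 8 by DESeq2, 9 by edgeR and 5 with no filter on low values, with 0 lower each time, and of the 13 hepatic genes with an unadjusted *p* below 0.05 only 1 had a negative difference. The summed level of the 24 hepatic genes was 3880 and 3957 CPM in WT and 4733 and 5355 CPM in A5-KO.

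Markers of the other cell types that such a culture can hold moved in part with genotype. Of 15 tested mesenchyme markers, 4 were higher and 2 lower (1 lower without either WT replicate), with a median difference of 0.31. Over all genes 3.19% were higher and 1.19% lower. At 0 h 5 of 15 tested mesenchyme markers were higher and 0 lower, beside 1.57% and 1.13% of all genes. *POSTN*, the matrix protein periostin, was at 14.2 and 12.9 CPM in WT and at 46.7 and 47.1 CPM in A5-KO, and *COL3A1* (36.4 and 32.5 against 64.0 and 61.4 CPM), *COL5A1* and *LUM* were higher too. *ZEB1* and *SNAI2*, transcription factors that repress epithelial genes, were lower in A5-KO instead. *ZEB1* was at 22.9 and 23.7 CPM in WT and at 13.4 and 13.5 CPM in A5-KO (log2 difference -0.75, SE 0.12, adjusted *p* = 0.00437), and *SNAI2* at 9.49 and 10.7 against 6.16 and 6.22 CPM. The summed mesenchyme markers, at 5177 and 5082 CPM in WT, were at 5793 and 4651 CPM in A5-KO and overlapped between the genotypes.

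Of 7 tested pluripotency markers only *LIN28A*, an RNA-binding protein gene that is also active in fetal endoderm, was called, with 117 and 134 CPM in WT and 241 and 221 CPM in A5-KO (log2 difference 0.88, SE 0.09). Of 6 tested endocrine genes, *RFX6* was higher in A5-KO at 6.07 and 4.79 CPM against 2.32 and 2.18 CPM in WT. Beside these single calls, 3.19% of all genes were higher and 1.19% lower. None of 4 neural or 3 endothelial and blood markers was called. Of 14 endothelial and blood markers 7, *PTPRC* and *CD34* among them, had no read in any of the 4 libraries, and the summed levels were 11.3 and 12.2 CPM in WT and 12.9 and 16.1 CPM in A5-KO. Of the pluripotency markers *POU5F1* and *NANOG* and of the neural markers *SOX1* and *OTX2* had no read either. The part of other cell types in the genotype differences was not tested.

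Genes of epithelial junctions and surfaces were also found among those higher at 1 h. Epithelial cells are joined by claudins at tight junctions and by cadherins and desmosomal plaque proteins below them, and keratins form their intermediate filaments. Claudins, keratins, CEACAM and S100 genes were counted as whole families by symbol, while the protease and junction genes are chosen sets. All were listed after the group had been noticed in these data, so no test of them is given, and 3.19% of all genes were higher. Of 14 tested claudins 7 were higher and 0 lower, with a median difference of 0.50 (log2). Of 7 tested keratins 5 were higher and 0 lower (0.77), of 6 CEACAM genes 4 were higher and 0 lower (0.89), and of 10 chosen genes of membrane serine proteases, their relatives and their inhibitors 6 were higher and 0 lower (0.78). Of 15 desmosome and adherens junction genes 5 were higher and 0 lower, with a median of 0.20, and 3 were higher without WT replicate 1. Among all tested members, the difference was negative in 4 claudins, 0 keratins, 0 CEACAM genes, 1 protease or inhibitor gene and 4 junction genes. These lists were written from the same values, so a shared direction is in part built in. With no filter on low values, 5 claudins, 0 keratins, 2 CEACAM, 3 protease or inhibitor and 3 junction genes were called, all higher.

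*CLDN4* (chromosome 7, 73799542 to 73832690, + strand), a claudin of tight epithelia, was at 18.0 and 19.7 CPM in WT and at 55.7 and 61.5 CPM in A5-KO (log2 difference 1.58, SE 0.11, adjusted *p* = 1.04e-05). *CLDN7* was at 12.2 and 10.6 against 35.6 and 35.9 CPM (1.58, SE 0.12), and *CLDN3*, which lies next to *CLDN4*, at 7.12 and 8.10 against 18.2 and 22.1 CPM (1.29, SE 0.15). *CLDN6*, a claudin of embryonic epithelia, was more abundant, at 92.8 and 100.1 against 164 and 167 CPM (0.77, SE 0.09). The A5-KO libraries were above the WT libraries for every one of these claudins. At 0 h the differences were 0.29 for *CLDN4*, 0.39 for *CLDN7*, 0.39 for *CLDN3* and 0.26 for *CLDN6*, and none was called.

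*KRT8*, *KRT18* and *KRT19* encode the keratins of simple epithelia and are abundant in these cells. *KRT8* was at 1648 and 1670 CPM in WT and at 2450.4 and 2667 CPM in A5-KO (log2 difference 0.62, SE 0.09, adjusted *p* = 0.0015). *KRT18* was at 419 and 445 against 686 and 793 CPM (0.77, SE 0.09) and *KRT19* at 333 and 372 against 546 and 642 CPM (0.75, SE 0.10). All 3 were called, with no overlap between genotypes. Their differences at 0 h were 0.02 for *KRT8*, 0.06 for *KRT18* and 0.04 for *KRT19*. *KRT15*, a keratin of basal cells, was also higher, though at 1.37 and 1.43 against 4.40 and 5.40 CPM only.

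*CDH1*, which encodes E-cadherin, the adhesion protein that defines epithelia, was at 100.4 and 102 CPM in WT and at 199 and 180.4 CPM in A5-KO (log2 difference 0.90, SE 0.09, adjusted *p* = 0.000127). *CDH3*, P-cadherin, was at 3.66 and 2.34 against 9.95 and 9.26 CPM (1.43, SE 0.19). The plaque protein genes *PKP3* (6.78 and 6.86 against 23.6 and 23.9 CPM) and *JUP* (111 and 122 against 182 and 184 CPM) were higher as well. At 0 h neither cadherin was called, with differences of 0.02 for *CDH1* and -0.19 for *CDH3*, nor was *JUP* at 0.21, whereas *PKP3* was already called higher at 0.66.

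*ST14* encodes matriptase and *PRSS8* prostasin, membrane-anchored proteases that act in series on epithelial surfaces, and *SPINT1* encodes the inhibitor of matriptase. *ST14* was at 15.0 and 16.6 CPM in WT and at 47.4 and 47.2 CPM in A5-KO (1.53, SE 0.11). *PRSS8* was at 21.7 and 23.1 against 54.4 and 56.0 CPM (1.26, SE 0.11), and *SPINT1* at 57.2 and 62.7 against 107 and 109 CPM (0.84, SE 0.09). *PRSS22* was at 3.15 and 3.22 against 8.97 and 10.0 CPM. In all 4 the genotypes were apart at 1 h, while the differences at 0 h were 0.25 for *ST14*, -0.06 for *PRSS8*, 0.08 for *SPINT1* and -0.36 for *PRSS22*.

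The CEACAM genes encode carcinoembryonic antigen and its relatives, adhesion glycoproteins of the apical surface. *CEACAM5* was at 18.4 and 18.8 CPM in WT and at 58.2 and 54.0 CPM in A5-KO (log2 difference 1.54, SE 0.11), and *CEACAM6* at 82.1 and 86.2 against 219 and 205 CPM (1.32, SE 0.09). *CEACAM7* and *CEACAM19* were called at lower levels. CEACAM genes are near-identical in parts, so reads may have been split among them. Of 8 tested S100 genes 3 were higher and 0 lower, beside 3.19% and 1.19% of all genes, namely *S100A6* at 108 and 107 against 174 and 217 CPM, *S100A14* and *S100A16*. With no filter on low values 0 S100 genes were called.

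Whether the genotype difference changed in the first hour was tested for every gene. It moved up in 49 genes (0.356% of 13767 tested) and down in 3 (0.0218%). All 49 are protein coding, as are 89.8% of all genes tested at 1 h. They were called from the change itself, so their direction in each genotype is a description. The WT mean was lower at 1 h in all 49 of them and the A5-KO mean was higher in 45. Both WT libraries at 1 h were below both at 0 h in 46 genes, and both A5-KO libraries at 1 h were above both at 0 h in 43. Their median difference was -0.19 at 0 h and 0.77 at 1 h. Of the 49 genes, 31 were called higher at 1 h, 10 had been called lower and 2 higher at 0 h.

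*PRSS8* was at 37.3 and 36.1 CPM in WT before Act D and at 34.1 and 36.5 CPM in A5-KO, and was at 21.7 and 23.1 CPM in WT and 54.4 and 56.0 CPM in A5-KO after 1 h (change 1.32, SE 0.14, adjusted *p* = 0.00184). *CLDN4* went from 41.8 and 34.8 to 18.0 and 19.7 CPM in WT and from 46.3 and 47.7 to 55.7 and 61.5 CPM in A5-KO (change 1.29, SE 0.16). *CEACAM5* went from 29.0 and 30.4 to 18.4 and 18.8 CPM in WT and from 37.9 and 32.2 to 58.2 and 54.0 CPM in A5-KO (change 1.31, SE 0.16). The 2 genotypes moved in opposite directions in each of these genes.

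*RAB25*, an epithelial GTPase of apical recycling, showed the same course and went from 14.7 and 14.7 to 8.03 and 8.65 CPM in WT and from 13.7 and 13.4 to 21.1 and 23.8 CPM in A5-KO (change 1.44, SE 0.19). *BEST4*, a chloride channel of a subset of intestinal epithelial cells, went from 14.1 and 14.1 to 8.95 and 9.82 CPM in WT and from 9.12 and 10.9 to 17.2 and 18.4 CPM in A5-KO (1.31, SE 0.20). The genotype order of *CA9*, a carbonic anhydrase induced by hypoxia, turned as well, from a difference of -0.73 at 0 h to 0.64 at 1 h.

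**Figure D3:**
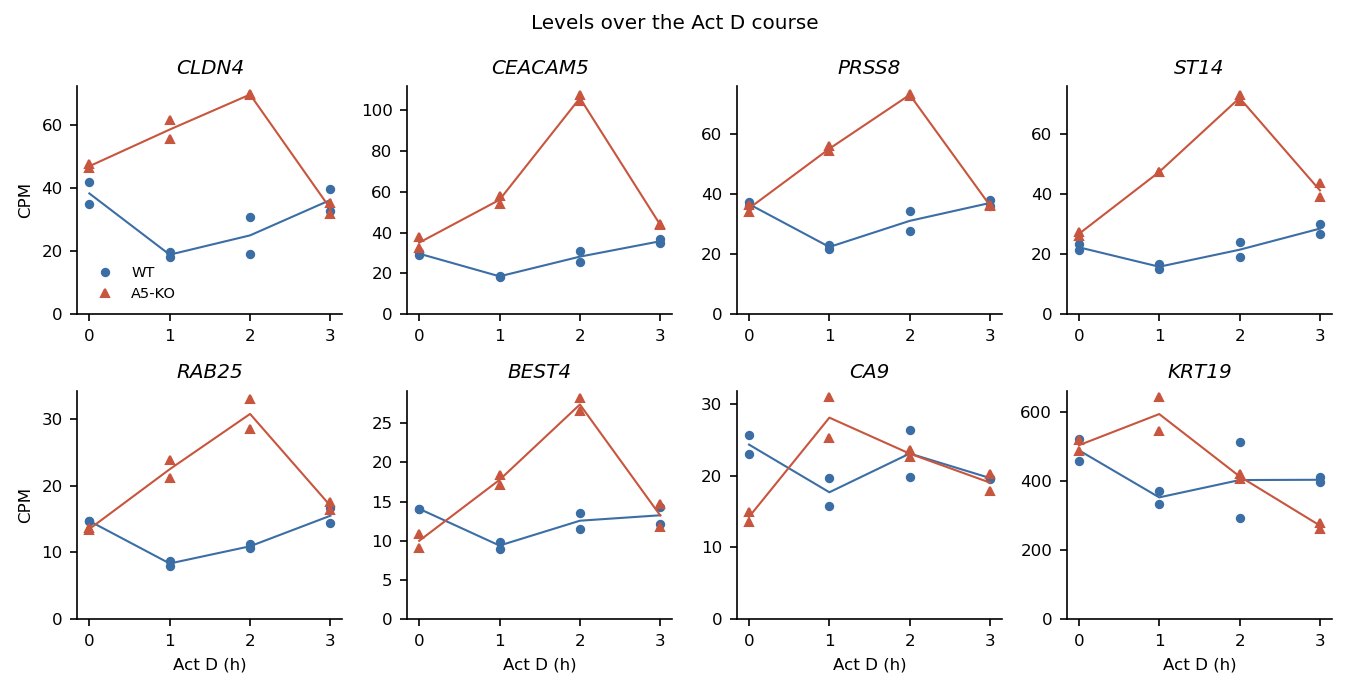
CPM of 8 genes at 0, 1, 2 and 3 h of Act D, with each library as a point (circles WT, triangles A5-KO) and the line through the mean of both libraries. At 1 h both A5-KO libraries lie above both WT libraries in all 8, and for *CLDN4*, *CEACAM5*, *PRSS8*, *RAB25* and *BEST4* the A5-KO mean is higher still at 2 h and close to WT at 3 h.

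The keratins and *CDH1* were among the 49 genes, with changes of 0.60 for *KRT8*, 0.71 for *KRT18*, 0.70 for *KRT19* and 0.88 for *CDH1*. So were *ST14* (1.27), *CLDN7* (1.18), *CEACAM6* (0.92), *SPINT1* (0.76), *PKP3* (1.00), *CDH3* (1.61), *PRSS22* (1.69), *S100A14* (1.27) and *TFF2* (0.99). *JUND*, a member of the AP-1 family of transcription factors, went from 294 and 251 to 103 and 120.0 CPM in WT and from 204 and 241 to 167 and 187 CPM in A5-KO (0.96, SE 0.15). The level of *JUND* was thus lower at 1 h than at 0 h in both genotypes. The number of genes that moved up depends on single libraries. It was 110, with 136 moved down, without A5-KO replicate 1 at 1 h, and between 13 and 26 without any 1 of the 4 WT libraries or without A5-KO replicate 1 at 0 h.

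*PUF60*, a splicing factor gene, had the largest upward change (2.07, SE 0.36), but its WT libraries at 0 h were at 12.9 and 23.9 CPM and thus far apart. The 3 genes that moved down were *NOMO1* (-2.64, SE 0.45) and the pseudogenes *DHFRP1* (-1.27, SE 0.23) and *MEMO1P1* (-1.92, SE 0.35), the last named after its values were seen. All 3 have near-identical relatives elsewhere in the genome, so their reads may be shared and their values are uncertain.

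**Figure D4:**
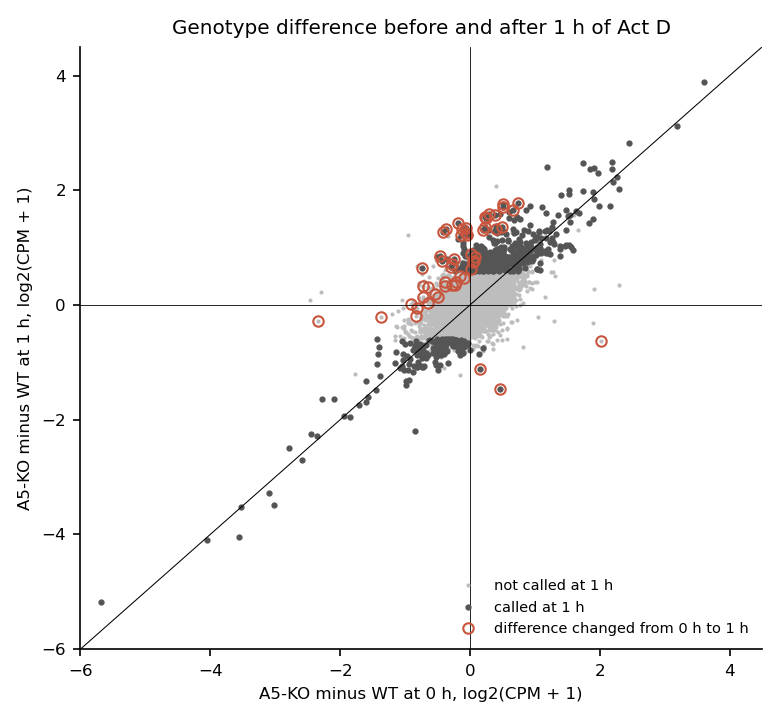
A5-KO minus WT difference at 0 h against that at 1 h for genes tested at both times, on the log2(CPM + 1) scale, with the line of equal differences. Dark points were called at 1 h, and orange-red rings mark genes whose difference changed from 0 h to 1 h, of which 49 lie above the line and 3 below it.

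Other lists with called members were small. Beside the counts that follow, 3.19% of all genes were higher and 1.19% lower. Of 12 tested intestinal and gastric genes 4 were higher and 0 lower, with a median of 0.45 at 1 h and 0.01 at 0 h. At 0 h the calls ran mainly the other way, with 1 of 13 tested higher and 3 lower. Of all genes, 1.57% were higher and 1.13% lower at 0 h. *MEP1A*, a brush border protease, was at 20.5 and 20.6 CPM in WT and at 33.8 and 33.4 CPM in A5-KO (log2 difference 0.68, SE 0.11), and *ANPEP* (13.3 and 12.3 against 24.3 and 21.3 CPM), *TFF2* and *FABP2* were higher too. Of 12 duct and acinar genes, *KRT19* and *MUC1* were higher and the water channel gene *AQP1* was lower, at 6.20 and 4.42 against 1.67 and 2.37 CPM. With no filter on low values 0 of the intestinal and gastric genes were called.

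Of 21 tested genes of the BMP and TGF-β response, 5 were higher and 0 lower, beside 3.19% and 1.19% of all genes. *ID2*, *ID3* and *ID4* encode inhibitors of basic helix-loop-helix factors that BMP signals induce, and *BMP4* encodes a ligand. *ID3* was at 81.0 and 87.3 CPM in WT and at 138 and 159 CPM in A5-KO (log2 difference 0.81, SE 0.10, adjusted *p* = 0.000606). *ID4* was at 8.23 and 8.49 against 16.6 and 16.8 CPM (0.92, SE 0.14), *ID2* at 94.2 and 103 against 137 and 163 CPM (0.60, SE 0.10), and *BMP4* at 2.34 and 3.29 against 7.48 and 6.25 CPM (1.05, SE 0.19). All 4 were lower at 1 h than at 0 h in both genotypes, and A5-KO was the higher genotype at both times, with differences at 0 h of 0.60 for *ID3*, 0.68 for *ID4*, 0.67 for *ID2* and 1.53 for *BMP4*. The number called was 3 by edgeR, by DESeq2 and without WT replicate 1, and 1 with no filter on low values.

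For the next 3 lists too, the shares over all genes were 3.19% higher and 1.19% lower. Of 13 interferon-stimulated genes, *ISG15*, *ISG20* and *OAS1* were higher and *IFITM1* lower, at 7.63 and 7.42 CPM in WT against 2.68 and 2.13 CPM in A5-KO. The median of the 13 was -0.17, and 3 were lower without A5-KO replicate 2. Of 29 collagen genes 6 were higher, *COL28A1* and *COL7A1* among them, and 3 lower, namely *COL25A1* at 11.7 and 11.7 against 5.06 and 3.27 CPM, *COL9A1* and *COL6A2*. Without WT replicate 1, 3 collagen genes were higher and 2 lower. Of 16 clustered protocadherins *PCDHB13* and *PCDHB16* were higher and *PCDHGB5* and *PCDHGB7* lower, which became 2 higher and 5 lower without A5-KO replicate 1, 0 and 3 without WT replicate 1 and 1 and 1 without A5-KO replicate 2.

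Of 338 tested zinc finger genes 2 (*ZNF579* and *ZNF789*) were higher and 6 lower, beside background shares of 3.19% and 1.19%. These counts were 6 and 16 without A5-KO replicate 1, 0 and 5 without WT replicate 1 and 1 and 5 without WT replicate 2. *ZNF248* was at 4.35 and 4.94 CPM in WT with no read in A5-KO, at least 106-fold lower. *ZNF793* had 2 reads over both A5-KO libraries against 260 in WT, a ratio of 136 with a 95% exact interval of 37.4 to 1130. *ZNF71* (5.58 and 6.64 against 1.29 and 1.29 CPM) and *ZNF470* were lower too, all 4 with differences beyond -2 at 0 h.

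Few genes of the m6A and RNA decay machinery were called. Of 22 tested writer, eraser and reader genes of m6A, *ALKBH5* alone was called by limma and DESeq2. A further m6A gene was called higher by edgeR. Of this list, only *YTHDC1* differed upward by more than 1.5-fold in the limma fit, where it was not called (adjusted *p* = 0.131). It was at 1.17 and 1.11 CPM in WT and at 1.5 and 8.65 CPM in A5-KO. The size of its difference thus rests on A5-KO replicate 2, and its other libraries lie near the filter of 1 CPM. The calls of the m6A list also changed when single libraries were left out. None of 37 genes of cytoplasmic mRNA decay and none of 17 genes of AU-rich element binding proteins was called by limma, with medians of -0.03 and -0.04. Of 20 immediate early genes *JUND* and *IER5* were higher and 0 lower, and of 16 ERK feedback genes *SPRY1* alone was called. With all 16 PP libraries in one fit, 0 genes of either list were called. No immediate early gene was called without WT replicate 1, and no ERK feedback gene without WT replicate 2 or A5-KO replicate 2, while 2 were lower without A5-KO replicate 1. *HES4* was the called gene among 19 of the Notch pathway, *ANKRD1* among 16 YAP and TEAD targets, *CHAC1* among 18 of the unfolded protein response, *HOXB3* among 8 HOX genes, *CXCL5* among 12 of the chemokine and NF-κB response and *CA9* among 24 of glycolysis and hypoxia, all higher in A5-KO. Beside these single calls, 3.19% of all genes were higher. *HES4* did not reach 1.5-fold by edgeR or DESeq2, no Notch gene was called without WT replicate 1 or A5-KO replicate 2, and no gene of glycolysis and hypoxia without WT replicate 2 or A5-KO replicate 2. *LSS* was the called gene among 23 of sterol and fatty acid synthesis and was lower, but its WT libraries stood at 39.4 and 24.2 CPM.

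The called genes of 2 further lists rest on libraries that differ, and 1.19% of all genes were lower. Of 78 tested cytosolic ribosomal protein genes, *RPS27* (951 and 1199 CPM in WT against 674 and 698 CPM in A5-KO) and *RPL30* were lower, and both have many processed pseudogenes that may take reads. The number lower was 4 without WT replicate 1 or A5-KO replicate 2 and 1 without WT replicate 2. Of 13 mitochondrially encoded mRNAs, *MT-ND4L* was lower, but its A5-KO libraries stood at 811 and 411 CPM, and it was called neither by DESeq2 nor without A5-KO replicate 2. No gene was called among 12 Wnt, 23 p53 target, 71 respiratory chain, 28 cell cycle, 13 retinoic acid, 12 clock, 14 SR splicing factor and CLK, 5 α-arrestin and 23 small nucleolar RNA host genes, and no metallothionein gene passed the filter. Over the 13 lists without a call by limma, edgeR and DESeq2 called 0 genes as well, and 71 of their 262 tested genes had an unadjusted *p* below 0.05, which is 27.1% against 24.8% of all tested genes. Direction was uneven in some lists. Summed levels overlapped between the genotypes for respiratory chain genes, at 9410 and 9491 CPM in WT and 9376 and 10680 CPM in A5-KO. They also overlapped for small nucleolar RNA host genes, at 2112 and 2159 against 2011 and 2212 CPM. Those of mRNA decay genes overlapped too, at 4154 and 4150 against 4273 and 4026 CPM. SR and CLK genes stood apart, at 1501 and 1548 against 1715 and 1821 CPM. Of the genes with an unadjusted *p* below 0.05, 15 of 17 respiratory chain, 10 of 11 small nucleolar RNA host and 6 of 6 SR and CLK genes were higher in A5-KO. In contrast, 6 of 8 mRNA decay genes were lower. Over all genes 2037 were higher and 1324 lower. Leaving out 1 library gave at most 3 calls in any of them, namely 3 lower genes of mRNA decay and 3 higher small nucleolar RNA host genes without A5-KO replicate 1.

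The genotype difference was also set against the stability of the transcripts. Genes averaging at least 1 CPM in the 8 libraries at 0 h and 1 h were sorted by the mean first-hour change of both genotypes on the log2(CPM + 0.1) scale. In the 204 genes that fell by 2 or more, 10 of 158 tested (6.33%) were higher and 1 (0.633%) lower, with a median difference of 0.09. The rest of this class averaged below 1 CPM at 1 h. A gene could pass that filter through the genotype that kept more of it, so these shares depend on the filter. In the 975 genes that fell by 1 to 2, 24 of 882 tested (2.72%) were higher and 10 (1.13%) lower. In the 1919 genes that fell by 0.5 to 1 the shares were 2.30% and 1.15%, in the 5872 that fell by up to 0.5 they were 2.93% and 1.12%, and in the 4797 that gained share they were 3.84% and 1.29%. In the same order of classes, 7, 14, 25, 79 and 92 genes had been called higher at 0 h. Those called lower at 0 h were 2, 10, 16, 56 and 71. Over all genes, 1.57% were higher and 1.13% lower at 0 h. The median of every class at 1 h was at most 0.09. Of the 49 genes whose difference moved up (0.356% of those tested), 27 lay in the class that gained share, 20 in the class that fell by up to 0.5 and 0 in the class with the fastest loss. Their median first-hour change was -0.51 in WT and 0.54 in A5-KO, so the genotypes largely offset each other in the mean that sets the class. Where these genes lie among the classes therefore cannot tell how stable their transcripts are.

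The medians of gene structure differed between the called sets and all genes, with no test of them. The genes higher in A5-KO had a median of 3695 exonic bases and a GC content of 52.4% in their longest transcript, against 5255.5 bases and 47.7% over all genes tested. The genes lower in A5-KO had medians of 6794 bases and 45.8%. The 49 genes had medians of 3542 bases and 56.2%. The 98 genes higher in A5-KO replicate 1 than in replicate 2 were longer than most, as given above, and the part of length and GC content in the genotype difference was not tested.

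The change from 1 h to 3 h was tested in the same way, and it shares the 1 h libraries with the test from 0 h to 1 h. From 1 h to 3 h the difference moved down in 2575 genes (19.1% of 13503 tested) and up in 275 (2.04%). Of the genes higher at 1 h, it moved down in 220 and up in 0, and of those lower at 1 h, up in 52 and down in 10. These genes were chosen on the 1 h libraries that also enter the change, so a move towards 0 is built into these counts. The median of the genes higher at 1 h was 0.25 at 3 h. These counts depend on the scaling: with median-of-ratios scaling the difference moved down in 1733 genes and up in 914. Without 1 library, the number moved up was 88 (WT replicate 1 at 1 h or A5-KO replicate 2 at 3 h), 102 (WT replicate 2 at 1 h), 127 (A5-KO replicate 1 at 3 h), 176 (A5-KO replicate 2 at 1 h), 438 (WT replicate 1 at 3 h) or 637 (A5-KO replicate 1 at 1 h).

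The WT libraries at 3 h bear on this comparison. *PDX1*, at 43.7 and 50.5 CPM in WT at 1 h, was at 49.1 and 66.4 CPM at 3 h, while A5-KO was at 12.7 and 11.5 CPM. The 3 h level of *ALKBH5* in WT was 48.3 and 33.7 CPM. *TNFSF9*, at 41.9 and 29.3 CPM in WT at 1 h, was at 2.09 and 1.58 CPM at 3 h, *MYH14* at 1.07 and 0.44 CPM and *SRRM3* at 2.65 and 1.80 CPM, whereas *MX2* was at 3.22 and 2.09 CPM. For these last 4 genes and *ALKBH5*, the WT level at 3 h was thus closer to that of A5-KO than at 1 h. WT replicate 2 at 2 h stood apart from replicate 1 too, with *PDX1* at 71.1 against 23.6 CPM and *TNFSF9* at 5.94 against 16.9 CPM. The cause was not tested.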

How the data were processed

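RNA-seq of 4 PP libraries (WT and A5-KO, 1 h of Act D, 2 each) was analysed, with the 0 h, 2 h and 3 h libraries for reference. Per the labels, an RNA spike-in mix was added. The authors trimmed reads with fastp, aligned them to hg38 with HISAT2 (2.1.0) and deposited CPM per gene. The counter and annotation release are not given in the sources used here. Symbols, coordinates and lengths come from GENCODE v44 on the same build; of 60623 identifiers 60369 had a symbol. The CPM were whole multiples of 1 read within 0.01 for 100.0% of values, which gave back whole reads.

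Genes with a mean CPM of at least 1 were tested on log2(CPM + 1) with limma (3.58.1, R 4.3.3; trended eBayes), which understates changes of low genes. Calls required more than 1.5-fold and a *p* below 0.05 after Benjamini-Hochberg adjustment. Changes of the genotype difference between times were tested as interactions over 8 libraries, without a limit on the fold. The study's test, DESeq2 (1.42.0), and edgeR (4.0.16) were alternatives on the recovered reads. The code was tested on simulated data. Named genes are those the study names at this stage, up to 12 each way with the largest called change, no overlap and at least 10 CPM in the higher genotype, up to 4 called each way per list, and up to 8 each way with the largest called change from 0 h to 1 h. The members, 38 gene lists and tests were chosen with earlier results of these data known, and 6 lists (claudins, keratins, CEACAM, proteases, junction genes, S100) were added after these values were seen. The labels give both genotypes replicate numbers 1 and 2; deviations of same-numbered libraries correlated by -0.02 at 1 h, 0.17 at 0 h and -0.01 at 3 h, so the numbers were not taken as pairs. The organoid files were not used, and 1 gene that the rule names is not reported here.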

Additional observations from a re-analysis of the deposited data

Results flagged for a closer look

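The genotype difference was another at 1 h than at 0 h, by limma's interaction test, in 49 genes where it moved up and 3 where it moved down, and another at 3 h than at 1 h in 275 genes where it moved up and 2575 where it moved down. Among the genes named here, the upward changes from 0 h to 1 h on the log2 scale were 2.07 for *PUF60*, 1.69 for *PRSS22*, 1.61 for *CDH3*, 1.44 for *RAB25*, 1.37 for *CA9*, 1.32 for *PRSS8*, 1.31 for *BEST4*, 1.31 for *CEACAM5*, 1.29 for *CLDN4*, 1.27 for *ST14* and 1.27 for *S100A14*. Smaller ones were 1.18 for *CLDN7*, 1.00 for *PKP3*, 0.99 for *TFF2*, 0.96 for *JUND*, 0.92 for *CEACAM6*, 0.88 for *CDH1*, 0.76 for *SPINT1*, 0.71 for *KRT18*, 0.70 for *KRT19* and 0.60 for *KRT8*. The downward changes were -1.27 for *DHFRP1*, -1.92 for *MEMO1P1* and -2.64 for *NOMO1*. Groups of 2 libraries allow no search for single deviating samples.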

How the results depend on the processing

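All 103 named genes called at 1 h kept their direction under the alternatives run, 77 kept the call under all but the missing filter, and 55 lost it with no filter. With no filter on low values 91 genes were called higher and 33 lower at 1 h, 87 and 77 at 0 h, and the difference moved up in 2 and down in 0 genes from 0 h to 1 h and up in 59 and down in 1246 from 1 h to 3 h, with many more genes tested. With no limit on the fold, 699 and 328 genes were called at 1 h. The 24 named genes whose difference changed from 0 h to 1 h kept the direction of that change under every alternative. Of them, 23 lost the call with no filter on low values, 11 with all 16 PP libraries in one fit and 1 by edgeR. Leaving out single libraries also cost some of them the call.

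With a block for the replicate number, 545 genes were higher and 227 lower at 1 h and 365 and 266 at 0 h, and the difference moved up in 61 and down in 3 genes from 0 h to 1 h and up in 370 and down in 2619 from 1 h to 3 h; the numbers are not known to pair the libraries. By count tests on recovered reads, 460 and 220 genes (edgeR) and 417 and 206 (DESeq2) were called at 1 h. With all 16 PP libraries in one fit, the difference moved up in 32 and down in 0 genes from 0 h to 1 h by limma. From 1 h to 3 h it moved up in 914 genes with median-of-ratios scaling, in 742 up and 1248 down with quantile normalization, and in 952 up and 1716 down with edgeR.

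Leaving out each library in turn gave 322 to 637 higher and 134 to 554 lower genes at 1 h (both highest without A5-KO replicate 1), 125 to 248 and 112 to 192 at 0 h (125 without WT replicate 2, 131 without A5-KO replicate 1), 13 to 110 up and 0 to 136 down from 0 h to 1 h, and 88 to 637 up and 1476 to 2871 down from 1 h to 3 h. The 136 genes were those without A5-KO replicate 1 at 1 h. Without WT replicate 2 at 3 h neither count from 1 h to 3 h moved by over 1.5 times. With 1 library left out the difference at 1 h ran from -0.606 to 0.056 for *PUF60* (above 0 without A5-KO replicate 2), from -0.20 to 0.018 for *NKX6-1* and -0.211 to 0.045 for *SOX9* (above 0 without WT replicate 2), and from -0.019 to 0.136 for *MNX1* (below 0 without A5-KO replicate 1). A pseudocount of 1 left 93 genes in the class with the fastest loss. Causes of these shifts were not tested. Counting error weighs most on genes near the filter of 1 CPM, and its share in the spread between replicates was not tested.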
